A study of Mus musculus with 9 samples.

Results

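The genes described here are 10 chemokine receptors, out of 19752 genes named on the array: Ccr10, Ccr4, Ccr8, Cxcr3, Cxcr4, Cxcr6, Cx3cr1, Ccr2, Ccr1 and Ccr9. They were chosen by gene symbol, and each was read by 1 probe set, the group of probes that gives 1 value for a gene on an array. The series measured innate lymphoid cells (ILCs, lymphocytes without rearranged antigen receptors) sorted from mouse skin, on 9 one-colour Affymetrix arrays. All mice were female, of B6 background, and carried EGFP at 1 Ccr10 allele with the other allele intact (Ccr10 +/EGFP), so that green fluorescence marks cells that use the Ccr10 locus. Cells that were CD45.2+, CD3- and negative for a lineage panel were collected as GFP+ and GFP- fractions. Rag1-/- mice, which lack the recombinase for T and B cell receptors, gave 2 GFP+ and 3 GFP- samples, and mice with intact Rag1 (Rag1-sufficient) gave 2 GFP+ and 2 GFP- samples. The EGFP allele was thus common to all groups, and no sample came from mice with both Ccr10 alleles intact. Ages, and whether replicates came from separate animals, were not given in the labels, so the p-values reflect spread between sorted samples that may be technical in origin.

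Chemokine receptors are seven-transmembrane proteins that couple to inhibitory G proteins and steer leukocytes along gradients of chemokines. CCR10 binds CCL27, which keratinocytes secrete, and CCL28 of mucosal epithelia, and it marks lymphocytes that settle in skin. CCR4 and CCR8 are also carried by skin-homing lymphocytes and by type 2 cells, CXCR3 by type 1 lymphocytes, CXCR6 by tissue-resident lymphocytes, and CCR9 by cells that home to the small intestine.

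Values are intensities in linear units, as the authors deposited them, and array medians lay between 74.1 and 77.6. Differences are on the log2(intensity + 1) scale, as estimate ± SE from a limma model over 17445 probe sets, with p-values adjusted by Benjamini-Hochberg and 0.05 as the threshold. Probe sets with a mean below about 41.6 units were left out of the test, which removed Ccr1 and Ccr9 and left 8 receptors. The arrays of Rag1-/- GFP+ replicate 1 and replicate 2 stood apart from each other: the mast cell protease Cpa3 read 2085 on replicate 1 and 19.9 on replicate 2, against 2009 to 2686 on the Rag1-/- GFP- arrays. Their median gap over all tested probe sets was 0.20, against 0.26 for the widest gap among the 3 Rag1-/- GFP- arrays, 0.12 for the Rag1-sufficient GFP+ pair and 0.09 for the Rag1-sufficient GFP- pair. Receptor differences printed below that rest on them are given with and without each, or with their range over left-out arrays. This was done where a call or direction turned or the value moved by over 1.5 times. Of 8 ILC markers, 7 had a named probe set, and their summed intensity was 22414 to 25179 in Rag1-/- GFP+, 22011 to 24840 in Rag1-/- GFP-, 22235 to 24009 in Rag1-sufficient GFP+ and 23203 to 23659 in Rag1-sufficient GFP- samples. Single markers went both ways beneath these sums. For GFP+ minus GFP- in Rag1-sufficient mice 3 of the 7 lay above 0 and 4 below, and none passed. No receptor passed the threshold in any comparison. Several groups of arrays did not overlap, which was so for 5.27% to 29.0% of all tested probe sets, by comparison and direction. Ccr4 and Cxcr3 were the receptors with the greatest differences.

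The reporter locus came first. Ccr10 read 148 and 96.5 in Rag1-/- GFP+ and 103, 125 and 109 in Rag1-/- GFP- cells. In Rag1-sufficient mice it read 163 and 130 in GFP+ and 129 and 126 in GFP- cells. The fractions overlapped in Rag1-/- mice, and in Rag1-sufficient mice the lower GFP+ array lay only just above the higher GFP- array. The difference between fractions was 0.10 ± 0.18 in Rag1-/- (adjusted p = 0.872) and 0.19 ± 0.20 in Rag1-sufficient mice (adjusted p = 0.801). The 95% intervals of these differences ran from -0.33 to 0.52 and from -0.27 to 0.66, whose upper ends correspond to 1.43-fold and 1.58-fold. Without Rag1-/- GFP+ replicate 1 the Rag1-/- difference was -0.21, and without replicate 2 it was 0.40. By group mean the order was Rag1-sufficient GFP+ (147 ± 22.9, SD, n = 2), Rag1-sufficient GFP- (127 ± 2.28, n = 2), Rag1-/- GFP+ (122 ± 36.6, n = 2) and Rag1-/- GFP- (112 ± 11.6, n = 3). No neighbours in that order differed beyond their spread. Rag1-/- minus Rag1-sufficient cells gave -0.28 ± 0.20 among GFP+ (adjusted p = 0.868) and -0.18 ± 0.18 among GFP- cells (adjusted p = 0.626). The GFP+ value was -0.59 without Rag1-/- GFP+ replicate 1 and 0.03 without replicate 2. Which part of the Ccr10 transcript the probes cover, and whether the EGFP allele contributes to the signal, was not given in the sources used here.

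**Figure D1:**
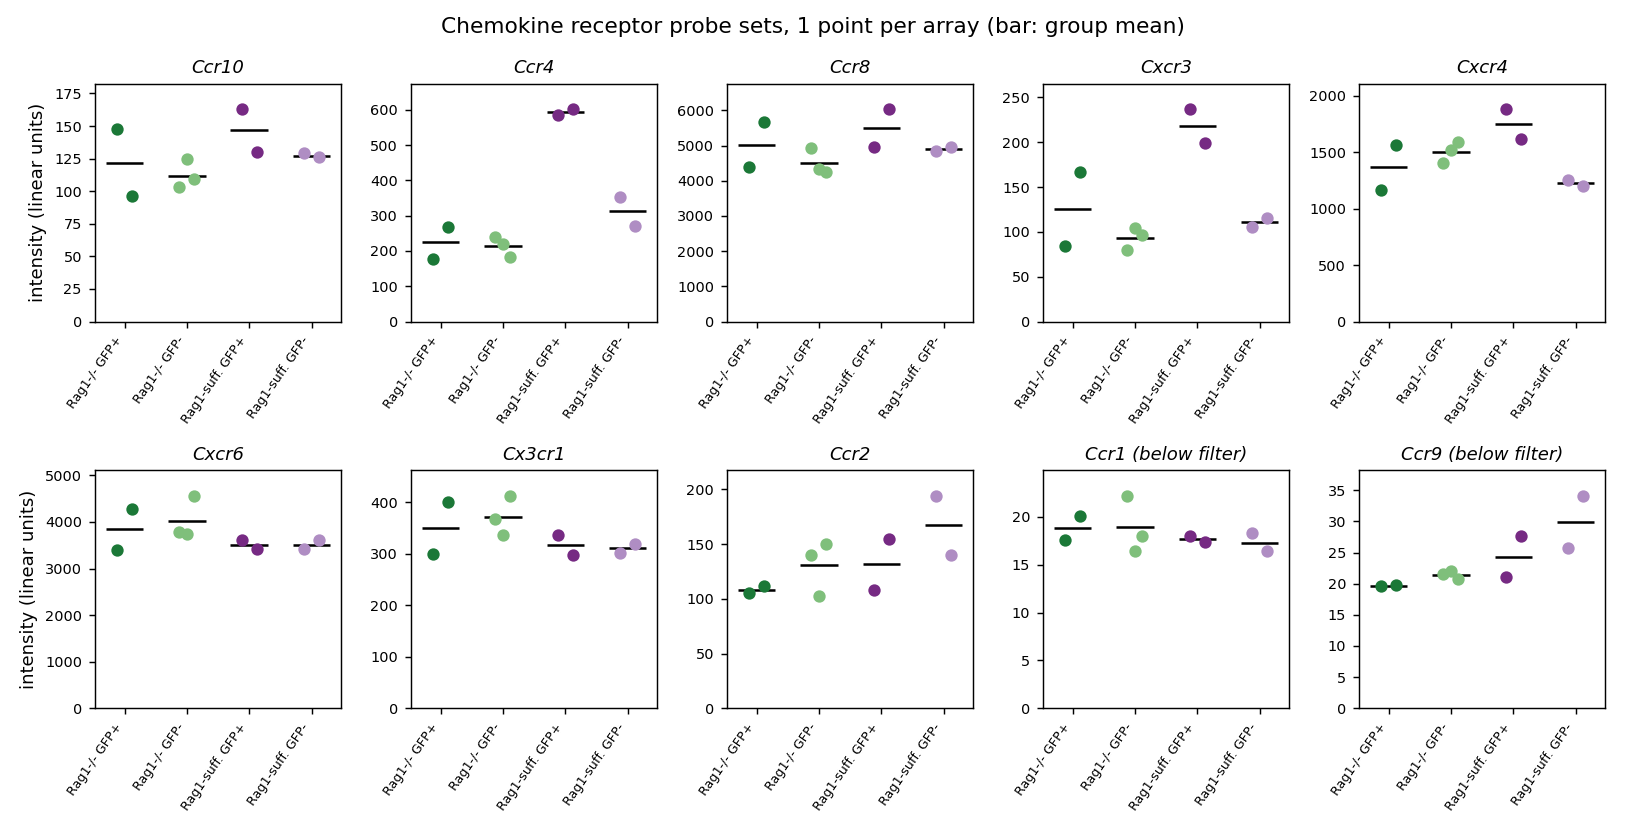
Intensity in linear units of the 10 receptor probe sets, with 1 point per array, a bar at each group mean and the groups along each horizontal axis (Rag1-/- GFP+, n = 2; Rag1-/- GFP-, n = 3; Rag1-sufficient GFP+, n = 2; Rag1-sufficient GFP-, n = 2). Both Rag1-sufficient GFP+ arrays lie above all others for Ccr4 and Cxcr3 and, narrowly, for Cxcr4 (1612 against 1590). The fractions lie close together for Ccr10.

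The genes whose levels followed Ccr10 most closely over the 9 arrays were named by a fixed rule, the 5 highest Pearson correlations of log2 values. They were Adcyap1r1 (r = 0.98), a neuropeptide receptor gene, Car11 (0.973), Vmo1 (0.956), Tmem169 (0.954) and Rassf10 (0.953). Adcyap1r1 read 81.3 and 64.9 in Rag1-/- GFP+, 67.9, 74 and 70.2 in Rag1-/- GFP-, 85.8 and 74 in Rag1-sufficient GFP+ and 77.5 and 77.0 in Rag1-sufficient GFP- samples. As for Ccr10, its highest arrays were replicate 1 of the GFP+ fractions and its lowest was Rag1-/- GFP+ replicate 2. Vmo1 (39.3 to 50.4) and Rassf10 (37.8 to 50.0) lay around the filter limit. These correlations describe arrays that share a scale and group structure and were picked as the highest of all tested probe sets. None of the receptors was among them: with Ccr10, Ccr4 had r = 0.43, Cxcr3 0.32, Ccr8 -0.17, Cxcr6 -0.70 and Cx3cr1 -0.72.

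Ccr4, the receptor of the skin and dendritic cell chemokines CCL17 and CCL22, showed the greatest Rag1 difference among the receptors. It read 178 and 269 in Rag1-/- GFP+ and 240, 220 and 184 in Rag1-/- GFP- cells. In Rag1-sufficient mice it read 585 and 602 in GFP+ and 353 and 270 in GFP- cells. Both Rag1-sufficient GFP+ arrays lay well above the other 7, among which the lowest Rag1-sufficient array (270) and the highest Rag1-/- array (269) nearly met. Among GFP+ cells, Rag1-/- minus Rag1-sufficient was -1.43 ± 0.23 (adjusted p = 0.0655), which is 2.70-fold lower and has a 95% interval of -1.96 to -0.91. This value missed the threshold, and it was -1.73 without Rag1-/- GFP+ replicate 2 (adjusted p = 0.0282) and -1.14 without replicate 1, with adjusted p-values between 0.0282 and 0.407 when each array was left out in turn. Among GFP- cells the Rag1 difference was -0.53 ± 0.21 (adjusted p = 0.254). GFP+ minus GFP- gave 0.04 ± 0.21 in Rag1-/- (adjusted p = 0.961) and 0.94 ± 0.23 in Rag1-sufficient mice (adjusted p = 0.128). The Rag1-/- value was 0.33 without Rag1-/- GFP+ replicate 1 and -0.26 without replicate 2. The test of whether the fractions' difference depends on Rag1 gave -0.90 ± 0.31 (Rag1-/- minus Rag1-sufficient, unadjusted p = 0.0189, adjusted p = 0.293), and it was -0.61 without Rag1-/- GFP+ replicate 1 and -1.20 without replicate 2. The 7 keratinocyte markers, none at 0, summed to 634 and 693 in Rag1-/- GFP+, against 1006 and 1049 in Rag1-sufficient GFP+ samples, and to 657 to 1110 in Rag1-/- GFP-, against 1227 and 2495 in Rag1-sufficient GFP- samples. None of them passed, and 6 of 7 had a Rag1 difference below 0 in GFP+ and 7 of 7 in GFP- cells. Among all probe sets 44.2% lay above 0 in GFP+ and 50.1% in GFP- cells. The 13 mast cell markers, none at 0, summed to 5046 and 1475 in Rag1-/- GFP+, against 1025 and 1133 in Rag1-sufficient GFP+ samples. In GFP- samples they summed to 4967 to 6310 in Rag1-/- and to 10805 and 11001 in Rag1-sufficient mice. The part of the keratinocyte and mast cell markers in the Ccr4 difference was not tested.

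Cxcr3, the receptor of the interferon-induced chemokines CXCL9 and CXCL10, had a similar order of arrays. It read 84.5 and 167 in Rag1-/- GFP+ and 80.1, 104 and 96.4 in Rag1-/- GFP- cells. In Rag1-sufficient mice it read 237 and 199 in GFP+ and 106 and 116 in GFP- cells. Rag1-/- GFP+ replicate 2 thus lay between the Rag1-sufficient GFP+ arrays and all others, while replicate 1 lay among the Rag1-/- GFP- arrays. The gap between these replicates was 1.97-fold, the widest of any receptor within a group. GFP+ minus GFP- was 0.35 ± 0.25 in Rag1-/- (adjusted p = 0.704) and 0.96 ± 0.28 in Rag1-sufficient mice (adjusted p = 0.186). The Rag1-sufficient difference had the same size of 0.96 and passed without Rag1-/- GFP+ replicate 1 (adjusted p = 0.0322) or replicate 2 (adjusted p = 0.0315), arrays that are not part of this comparison. Without an array of the groups compared it was 0.84 to 1.09, with adjusted p-values of 0.387 to 0.671. In Rag1-/- mice the difference was 0.83 without replicate 1 and -0.14 without replicate 2. The dependence of the fractions' difference on Rag1 was -0.61 ± 0.37 (adjusted p = 0.487), and it lay between -1.1 and -0.13 when each array was left out in turn. Rag1-/- minus Rag1-sufficient gave -0.86 ± 0.28 among GFP+ (adjusted p = 0.503) and -0.25 ± 0.25 among GFP- cells (adjusted p = 0.621). Without Rag1-/- GFP+ replicate 2 the GFP+ value became -1.35 (adjusted p = 0.0316), and without replicate 1 it was -0.38.

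Over the 9 arrays Ccr4 and Cxcr3 had r = 0.85 on the log2 scale, a description of arrays that share scale and groups. It was the second highest of the 28 pairs of tested receptors, after Cxcr6 with Cx3cr1 (r = 0.96). Some markers of other lymphocytes followed parts of this pattern, and others went the other way. The 6 NK cell markers, none at 0, summed to 619 and 1394 in Rag1-/- GFP+, 735 to 853 in Rag1-/- GFP-, 975 to 1076 in Rag1-sufficient GFP+ and 608 to 619 in Rag1-sufficient GFP- samples. As for Cxcr3, replicate 2 was the higher of the Rag1-/- GFP+ arrays. Of the 6, Klrk1 (the receptor NKG2D), Tbx21 (the factor T-bet) and Prf1 (perforin) were tested and the other 3 lay below the filter. Klrk1 read 102 and 361 in Rag1-/- GFP+, 169, 155 and 228 in Rag1-/- GFP-, 437 and 560 in Rag1-sufficient GFP+ and 224 and 207 in Rag1-sufficient GFP- samples, the order of groups seen for Cxcr3. Tbx21 read 283 and 661 in Rag1-/- GFP+ and 343 and 330 in Rag1-sufficient GFP+ samples. For Rag1-/- minus Rag1-sufficient GFP+ cells Klrk1 was at -1.36, Tbx21 at 0.36 and Prf1 at 0.85, and none passed. The 11 T cell markers, none at 0, summed to 4094 and 7525 in Rag1-/- GFP+, 5197 to 7747 in Rag1-/- GFP-, 3379 to 3963 in Rag1-sufficient GFP+ and 2643 to 2658 in Rag1-sufficient GFP- samples. Among them Cd3e, a chain of the T cell receptor complex, rose in Rag1-/- GFP+ cells (763 and 1981, against 233 and 157 in Rag1-sufficient GFP+ cells), by 2.68 ± 0.39 (adjusted p = 0.0419). It was the only T cell marker of 11 to pass in that comparison, where 0.246% of all probe sets were called. There 7 lay above 0 and 4 below, among them Cd28, a costimulatory receptor, at -1.17 (adjusted p = 0.469). Cd3e was also higher in Rag1-/- GFP- cells (925, 765 and 942, against 270 and 238 in Rag1-sufficient GFP- cells), by 1.78 ± 0.36 (adjusted p = 0.101). Averaged over fractions its Rag1 difference was 2.23 ± 0.27 (adjusted p = 0.041). The part of these markers in the Ccr4 and Cxcr3 levels was not tested, and in sorted bulk samples fewer cells with a transcript and less of it per cell cannot be told apart.

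**Figure D2:**
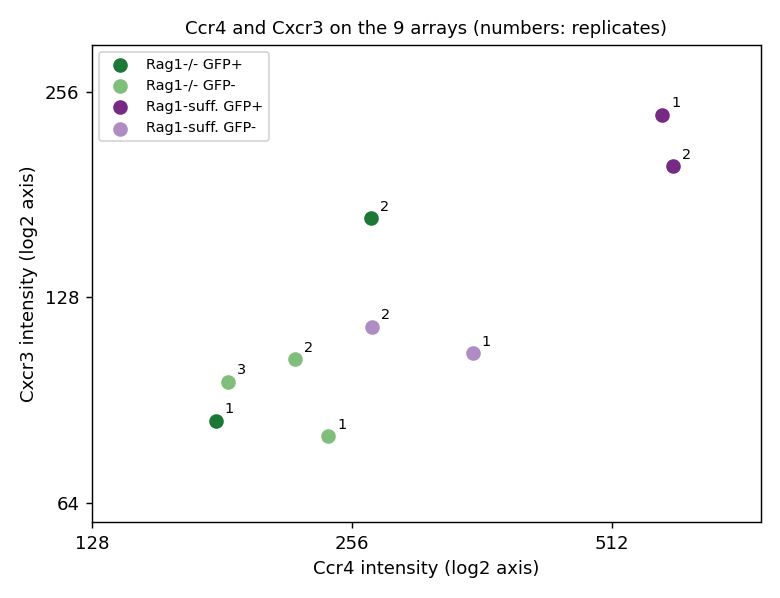
Intensity of Ccr4 (horizontal) against Cxcr3 (vertical), both in linear units on log2 axes, with 1 point per array coloured by group and numbered by replicate. The Rag1-sufficient GFP+ arrays stand at the upper right (Ccr4 585 and 602, Cxcr3 237 and 199), and Rag1-/- GFP+ replicate 2 is the nearest to them in Cxcr3 (167).

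The start regions of these pairs are shown because their members had the closest profiles over the arrays. Each runs from 250 bases before to 50 after the gene's start, 5′ to 3′ on the gene's strand, from RefSeq on GRCm38.p6. They are Ccr4 (chr9:114496495-114496794, minus strand) and Cxcr3 (chrX:101734098-101734397, minus strand), then Cxcr6 (chr9:123806227-123806526, plus strand) and Cx3cr1 (chr9:120068247-120068546, minus strand). Capitals mark matches, on either strand, to 5 motifs picked with the levels known: AGATAA, bound by GATA factors; TGTGGT, bound by RUNX factors; TCACACC, bound by T-box factors; AGGTCA, bound by ROR receptors; and TGANTCA, bound by AP-1. The matches shown do not overlap each other.
Ccr4: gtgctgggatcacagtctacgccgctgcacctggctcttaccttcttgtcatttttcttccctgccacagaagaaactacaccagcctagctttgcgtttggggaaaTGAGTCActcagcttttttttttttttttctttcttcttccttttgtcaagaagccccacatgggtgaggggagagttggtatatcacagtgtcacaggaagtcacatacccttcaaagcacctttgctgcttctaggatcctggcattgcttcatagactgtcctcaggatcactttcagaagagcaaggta
Cxcr3: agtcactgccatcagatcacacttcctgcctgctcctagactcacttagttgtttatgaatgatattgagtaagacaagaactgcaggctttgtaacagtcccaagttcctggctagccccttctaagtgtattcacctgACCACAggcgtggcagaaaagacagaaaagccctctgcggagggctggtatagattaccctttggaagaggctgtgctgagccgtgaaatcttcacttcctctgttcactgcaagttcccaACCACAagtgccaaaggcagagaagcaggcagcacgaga
Cxcr6: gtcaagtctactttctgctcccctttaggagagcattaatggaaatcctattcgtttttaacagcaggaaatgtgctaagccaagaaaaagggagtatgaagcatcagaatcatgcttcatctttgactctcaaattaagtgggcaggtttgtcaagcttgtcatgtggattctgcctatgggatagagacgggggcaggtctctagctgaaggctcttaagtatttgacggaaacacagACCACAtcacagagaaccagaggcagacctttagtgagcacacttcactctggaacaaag
Cx3cr1: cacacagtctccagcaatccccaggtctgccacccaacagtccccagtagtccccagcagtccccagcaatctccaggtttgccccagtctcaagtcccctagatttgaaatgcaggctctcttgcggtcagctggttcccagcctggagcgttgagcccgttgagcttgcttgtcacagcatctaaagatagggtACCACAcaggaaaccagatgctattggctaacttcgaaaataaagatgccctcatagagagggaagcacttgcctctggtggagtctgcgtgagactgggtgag
Ccr4 held the AP-1 letters, which 7.81% of all 32851 start regions hold, and Cxcr3, Cxcr6 and Cx3cr1 each held the RUNX letters, which 16.8% hold. The members of the Ccr4 and Cxcr3 pair shared no motif, and those of the Cxcr6 and Cx3cr1 pair shared the RUNX letters. Of the 9 receptors with a start region in the table, 4 held RUNX, 2 held GATA (Ccr8 and Ccr2, against 11.2% of all) and none held the T-box (3.98% of all) or ROR letters (16.3% of all). A match is a description of letters in this window.

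Ccr8, the receptor of CCL1 that in the mouse also binds CCL8, was high on every array, at 4381 and 5678 in Rag1-/- GFP+, 4940, 4330 and 4253 in Rag1-/- GFP-, 4971 and 6035 in Rag1-sufficient GFP+ and 4855 and 4956 in Rag1-sufficient GFP- cells. Replicate 2 was the higher array in both GFP+ groups. GFP+ minus GFP- was 0.15 ± 0.13 in Rag1-/- (adjusted p = 0.737) and 0.16 ± 0.15 in Rag1-sufficient mice (adjusted p = 0.760), the second of which was -0.02 after quantile normalization. The 95% interval in Rag1-sufficient mice was -0.17 to 0.49. The Rag1-/- difference was 0.34 without Rag1-/- GFP+ replicate 1 and -0.04 without replicate 2. Rag1-/- minus Rag1-sufficient was -0.14 ± 0.15 among GFP+ cells (adjusted p = 0.923), 0.05 without replicate 1 and -0.32 without replicate 2.

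Cxcr4, the receptor of CXCL12 that retains leukocytes in marrow and stroma, had Rag1 differences of opposite sign in the fractions. Among GFP+ cells it read 1166 and 1563 in Rag1-/- and 1880 and 1612 in Rag1-sufficient mice, a difference of -0.37 ± 0.17 (adjusted p = 0.740) that was -0.15 without Rag1-/- GFP+ replicate 1 and -0.58 without replicate 2. Among GFP- cells it read 1401, 1519 and 1590 in Rag1-/- and 1254 and 1203 in Rag1-sufficient mice, a difference of 0.29 ± 0.16 (adjusted p = 0.363). The genotypes overlapped in neither fraction. Of all probe sets, 18.5% were lower in Rag1-/- GFP+ cells and 23.0% higher in Rag1-/- GFP- cells without overlap. GFP+ minus GFP- was -0.15 ± 0.16 in Rag1-/- (adjusted p = 0.764; 0.01 after quantile normalization) and 0.50 ± 0.17 in Rag1-sufficient mice (adjusted p = 0.259). The dependence on Rag1 was -0.66 ± 0.23 (unadjusted p = 0.0203, adjusted p = 0.297), and it was -0.44 without Rag1-/- GFP+ replicate 1 and -0.87 without replicate 2. The Rag1-/- fraction difference was 0.06 without replicate 1 and -0.36 without replicate 2.

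Cxcr6, the receptor of CXCL16, and Cx3cr1, the receptor of fractalkine, varied little. Cxcr6 read 3406 and 4281 in Rag1-/- GFP+, 3774, 3746 and 4559 in Rag1-/- GFP-, 3603 and 3422 in Rag1-sufficient GFP+ and 3409 and 3622 in Rag1-sufficient GFP- cells. Cx3cr1 read 299 and 401 in Rag1-/- GFP+, 367, 336 and 412 in Rag1-/- GFP-, 336 and 298 in Rag1-sufficient GFP+ and 302 and 319 in Rag1-sufficient GFP- cells. For both genes Rag1-/- GFP- replicate 3 and Rag1-/- GFP+ replicate 2 were the highest arrays. In Rag1-sufficient mice GFP+ minus GFP- was 0.00 ± 0.14 for Cxcr6, with a 95% interval of -0.32 to 0.32, and 0.03 ± 0.18 for Cx3cr1, with one of -0.39 to 0.45. In Rag1-/- mice it was -0.07 ± 0.13 for Cxcr6 and -0.10 ± 0.17 for Cx3cr1. Without Rag1-/- GFP+ replicate 1 these were 0.09 and 0.12, and without replicate 2 they were -0.24 and -0.31. Rag1-/- minus Rag1-sufficient among GFP- cells was 0.19 ± 0.13 for Cxcr6 (adjusted p = 0.454, and -0.02 after quantile normalization) and 0.26 ± 0.17 for Cx3cr1 (adjusted p = 0.447). In both cases the genotypes did not overlap, where 23.0% of all probe sets were higher without overlap. Among GFP+ cells it was 0.12 ± 0.14 for Cxcr6 and 0.13 ± 0.18 for Cx3cr1, which became 0.29 and 0.34 without Rag1-/- GFP+ replicate 1 and -0.04 and -0.08 without replicate 2.

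Ccr2, the receptor of CCL2 on monocytes and some lymphocytes, was the receptor with the lowest values in GFP+ relative to GFP- cells. It read 105 and 112 in Rag1-/- GFP+, 140, 103 and 150 in Rag1-/- GFP-, 108 and 155 in Rag1-sufficient GFP+ and 194 and 140 in Rag1-sufficient GFP- cells. The fractions overlapped in both genotypes. GFP+ minus GFP- was -0.26 ± 0.22 in Rag1-/- (adjusted p = 0.728) and -0.35 ± 0.24 in Rag1-sufficient mice (adjusted p = 0.628). Rag1-/- minus Rag1-sufficient was -0.26 ± 0.24 among GFP+ (adjusted p = 0.909) and -0.35 ± 0.22 among GFP- cells (adjusted p = 0.418). Without either Rag1-/- GFP+ array the GFP+ value and the Rag1-/- fraction difference lay between -0.30 and -0.21. The 9 measured macrophage and monocyte markers, none at 0, summed to 453 and 485 in Rag1-/- GFP+, 440 to 485 in Rag1-/- GFP-, 483 to 489 in Rag1-sufficient GFP+ and 542 to 612 in Rag1-sufficient GFP- samples, and their part in the Ccr2 level was not tested.

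Ccr1, a receptor of CCL3 and CCL5 on myeloid cells, stayed at 16.4 to 22.2 units, and Ccr9, the gut-homing receptor of CCL25, at 19.7 to 34.1. Ccr9 read 19.7 and 19.8 in Rag1-/- GFP+, 21.6, 22.0 and 20.8 in Rag1-/- GFP-, 21.0 and 27.7 in Rag1-sufficient GFP+ and 25.8 and 34.1 in Rag1-sufficient GFP- cells. Its lowest arrays were thus Rag1-/- and its highest Rag1-sufficient. Taken over both fractions the genotypes overlapped, as the Rag1-sufficient GFP+ array at 21.0 lay among the Rag1-/- arrays. All of these values lay below the filter limit. With all probe sets kept in the model, neither gene passed in any of the 7 comparisons, with smallest adjusted p-values of 0.682 for Ccr1 and 0.207 for Ccr9.

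**Figure D3:**
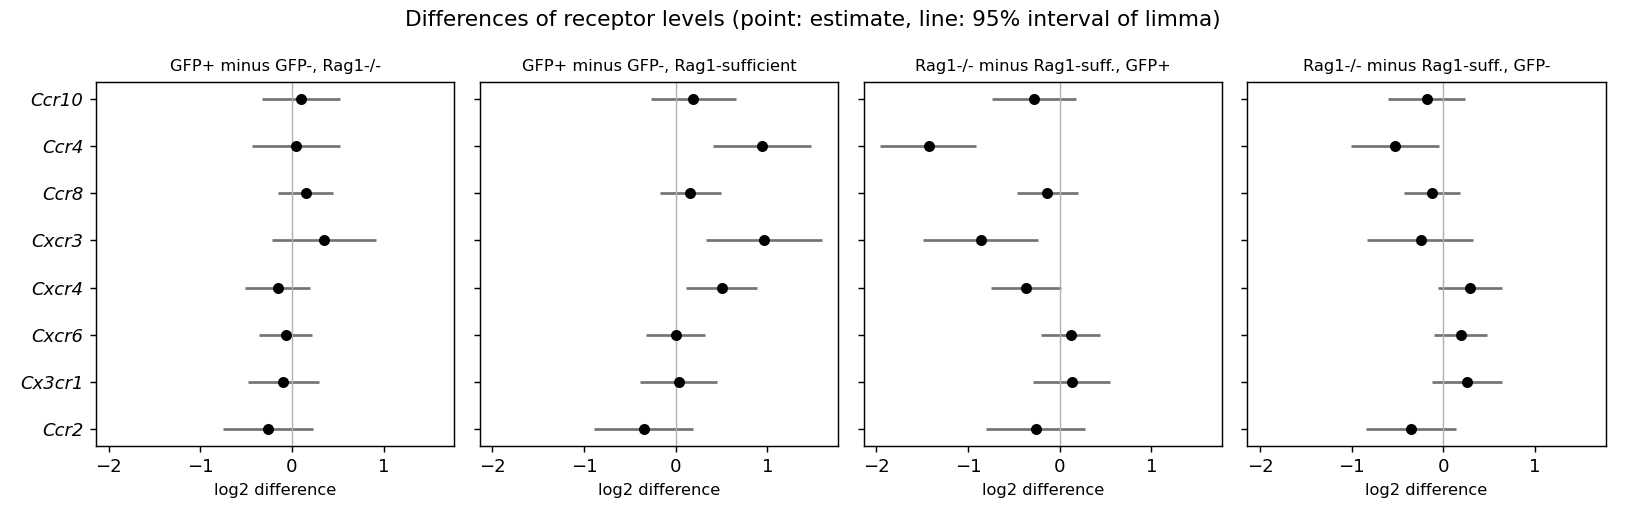
Log2 differences (points) with 95% intervals (lines) of the 8 tested receptors, in panels for GFP+ minus GFP- in Rag1-/- and in Rag1-sufficient mice and for Rag1-/- minus Rag1-sufficient mice among GFP+ and among GFP- cells. In Rag1-sufficient mice the intervals of Ccr4, Cxcr3 and Cxcr4 lie above 0, before adjustment over all probe sets.

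Across the comparisons, limma called 0 of the 8 receptors in each. Between the fractions of Rag1-sufficient mice 3 receptors (Ccr4, Cxcr3 and Cxcr4) had an unadjusted p under 0.05, beside 13% of all probe sets at that level and 0.803% of all that were called. There 5 receptors were higher in GFP+ cells without overlap (Ccr10, Ccr4, Ccr8, Cxcr4 and Cxcr3), where 29.0% of all probe sets were, and 0 were lower without overlap, where 21.2% of all were. The median receptor difference was 0.18, against 0.01 for all probe sets. In the same comparison all 10 tested mast cell markers lay below 0, with a median of -2.17, and 8 of them passed. Their part in the receptor differences was not tested. For the same fractions in Rag1-/- mice no receptor had an unadjusted p under 0.05 (6.29% of all probe sets did) or groups without overlap, where 0.0% of all probe sets were called and 5.27% were higher and 10.1% lower without overlap. The median was -0.02 there, against -0.01.

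For Rag1-/- against Rag1-sufficient GFP+ cells, 2 receptors (Ccr4 and Cxcr3) had an unadjusted p under 0.05, beside 6.82% of all probe sets at that level and 0.246% of all that were called. There 3 were lower without overlap (Ccr4, Cxcr4 and Cxcr3), where 18.5% of all probe sets were, and 0 were higher, where 11.0% were. The median was -0.27, against -0.02. Only 0.1% of all probe sets had a lower difference than Ccr4 and 0.6% a lower one than Cxcr3. Among GFP- cells 1 of the 8 receptors, Ccr4, had an unadjusted p under 0.05, a smaller share than the 17.3% of all probe sets at that level, and 0.143% of all were called. There 3 receptors were lower (Ccr10, Ccr4 and Cxcr3) and 3 higher (Cxcr6, Cxcr4 and Cx3cr1) without overlap, where 17.6% and 23.0% of all probe sets were.

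Averaged over genotypes, GFP+ minus GFP- was 0.66 ± 0.19 for Cxcr3 (adjusted p = 0.344) and 0.49 ± 0.16 for Ccr4 (adjusted p = 0.453), the receptors with an unadjusted p under 0.05, beside 7.38% of all probe sets at that level and 0.212% of all that were called. The Cxcr3 value was 0.90 and passed without Rag1-/- GFP+ replicate 1 (adjusted p = 0.0308), and it was 0.41 without replicate 2 (adjusted p = 0.255), with adjusted p-values of up to 0.876 when each array was left out. The Ccr4 value was 0.64 without replicate 1 and 0.34 without replicate 2. Averaged over fractions, Rag1-/- minus Rag1-sufficient was -0.98 ± 0.16 for Ccr4 (adjusted p = 0.0699) and -0.56 ± 0.19 for Cxcr3 (adjusted p = 0.355), again those with an unadjusted p under 0.05, beside 9.84% of all probe sets at that level and 0.086% of all that were called. The Cxcr3 value was -0.32 without Rag1-/- GFP+ replicate 1 and -0.80 without replicate 2. With each array left out in turn the Ccr4 value had adjusted p-values of 0.0488 to 0.296. It passed without Rag1-/- GFP+ replicate 2 (-1.13, adjusted p = 0.0488) and after quantile normalization (-1.03, adjusted p = 0.0471). The dependence of the fractions' difference on Rag1 called 0.0% of all probe sets, and 2 receptors (Ccr4 and Cxcr4) had an unadjusted p under 0.05, beside 13.6% of all probe sets at that level. The within-fraction and within-genotype comparisons share arrays, so their values are not independent.

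**Figure D4:**
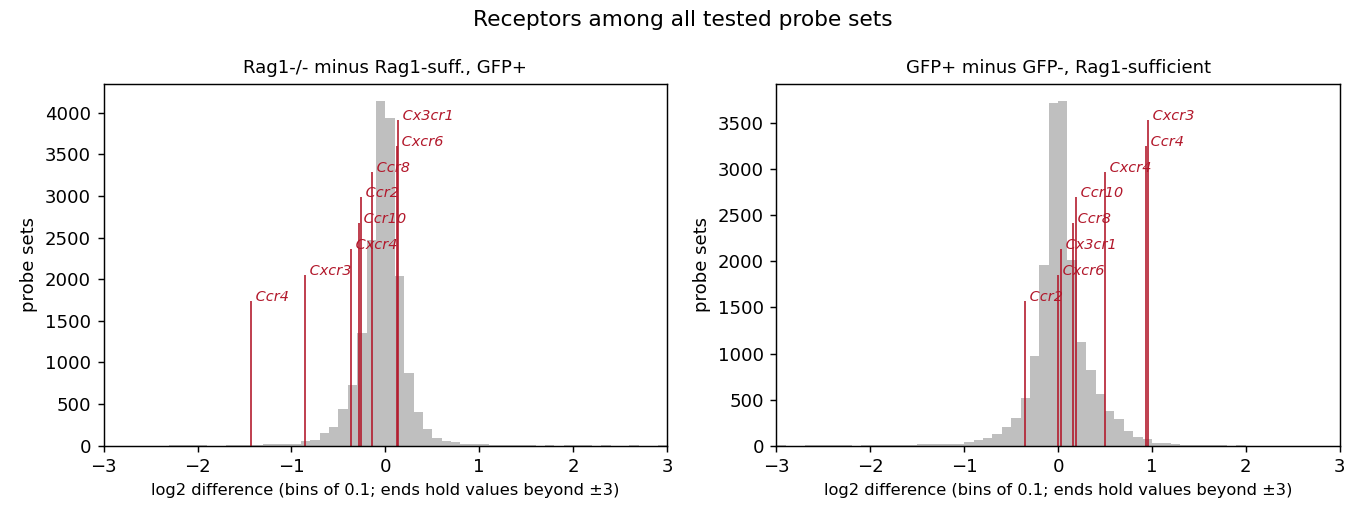
Number of tested probe sets (vertical, grey bars) by log2 difference (horizontal, bins of 0.1), with the 8 receptors as red lines whose height has no meaning, for Rag1-/- minus Rag1-sufficient GFP+ cells and for GFP+ minus GFP- cells of Rag1-sufficient mice. Ccr4 (-1.43 and 0.94) and Cxcr3 (-0.86 and 0.96) lie at the edges of both distributions, and the other receptors lie nearer the centre.

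Of 15 other chemokine receptors listed, 14 were on the array and 8 were tested. Xcr1, the XCL1 receptor found on type 1 dendritic cells, fell in GFP+ cells of Rag1-sufficient mice (38.3 and 38.2, against 68.2 and 65.0 in GFP- cells), with an estimate of -0.78 ± 0.07 (adjusted p = 0.00843). It was also lower in Rag1-/- than in Rag1-sufficient GFP- cells (41.6, 39.3 and 39.5 in Rag1-/- GFP-), a difference of -0.72 ± 0.07 (adjusted p = 0.0125). In Rag1-/- mice GFP+ cells read 41.0 and 42.9, and the fractions differed by 0.06 ± 0.07 (adjusted p = 0.782). The mean over genotypes (-0.36 ± 0.05, adjusted p = 0.0387) averages these values, and the test of the difference between them gave 0.85 ± 0.10 (adjusted p = 0.0723). These intensities lie around the filter limit, so the size is approximate, and none of the other 7 tested passed in any comparison. The 8 dendritic and Langerhans cell markers, which include Xcr1 and of which none was at 0, summed to 458 and 480 in Rag1-/- GFP+, 468 to 515 in Rag1-/- GFP-, 409 to 450 in Rag1-sufficient GFP+ and 611 to 686 in Rag1-sufficient GFP- samples, and their part was not tested. Ccr6, the receptor of CCL20, was singled out after its values were seen. It read 996 and 857 in Rag1-/- GFP+ and 506 and 579 in Rag1-sufficient GFP+ cells, and 1316, 1185 and 1129 in Rag1-/- GFP- and 733 and 715 in Rag1-sufficient GFP- cells. Averaged over fractions its Rag1 difference was 0.75 ± 0.11 (adjusted p = 0.0606), opposite in sign to that of Ccr4.

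Of the receptors' own ligands, 20 of 23 listed genes were on the array, 13 were tested and none passed in any comparison. Their median for GFP+ minus GFP- in Rag1-sufficient mice was -0.17, against 0.01 for all probe sets. The ligands with the smallest p-values were Ccl2, a ligand of CCR2, and Ccl3, a ligand of CCR1. Ccl2 read 99.9 on both GFP+ arrays of Rag1-sufficient mice, against 190 and 146 in GFP- cells (-0.73 ± 0.13, adjusted p = 0.0542). Ccl3 read 92.2 and 46.7 in those GFP+ cells, against 161 and 279 in GFP- cells (-1.68 ± 0.32, adjusted p = 0.0639). The mast cell markers summed to 1025 and 1133 in the same GFP+ samples and to 10805 and 11001 in the GFP- samples (13 of 13 measured, none at 0), and their part in these ligand levels was not tested. Ccl28, a CCR10 ligand, stayed at 20.6 to 25.4 units on all arrays, below the filter, and was not tested. CCL27, the other CCR10 ligand, was listed as Ccl27a, Ccl27b and Ccl27, and none of these had a probe set under its symbol alone. No ligand of CCR10 was thus tested.

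Among genes that carry or end receptor signals, 21 of 22 listed were on the array and tested, and none passed in any comparison. Their median for GFP+ minus GFP- in Rag1-sufficient mice was 0.14. Grk3, a kinase that desensitises activated receptors, read 48.4 and 54.3 in GFP+ and 70.8 and 76.5 in GFP- cells of Rag1-sufficient mice (-0.51 ± 0.11, adjusted p = 0.103). Rgs16, which speeds the switching off of G proteins, read 307 and 320 in these GFP+ and 474 and 502 in these GFP- cells (-0.64 ± 0.15, adjusted p = 0.126).

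The enzymes and scaffold of selectin ligands, the sugars with which lymphocytes roll on skin vessels, were listed as 7 genes, of which 6 were tested and none passed. All 6 had a positive difference for GFP+ minus GFP- in Rag1-sufficient mice, with a median of 0.21, against 0.01 for all probe sets, of which 53.6% lay above 0. All 6 had a negative one for Rag1-/- minus Rag1-sufficient GFP+ cells, with a median of -0.14, against -0.02 for all probe sets, of which 44.2% lay above 0. In GFP- cells the Rag1 differences were split, with 3 above and 3 below 0, and between the fractions of Rag1-/- mice 2 lay above and 4 below 0. These comparisons share the Rag1-sufficient GFP+ arrays. St3gal6, a sialyltransferase, read 264 and 698 in Rag1-/- GFP+, 387, 436 and 553 in Rag1-/- GFP-, 1092 and 1054 in Rag1-sufficient GFP+ and 522 and 518 in Rag1-sufficient GFP- cells. As for Ccr4 and Cxcr3, both Rag1-sufficient GFP+ arrays were the highest and Rag1-/- GFP+ replicate 1 was low. Its Rag1 difference among GFP+ cells was -1.32 ± 0.39 (adjusted p = 0.440). Selplg, the scaffold PSGL-1, read 2187 and 2515 in GFP+ and 1836 and 1833 in GFP- cells of Rag1-sufficient mice (0.35 ± 0.16, adjusted p = 0.396).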

How the data were processed

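Expression was read on 9 arrays, 1 per sorted sample. The deposited table holds linear intensity values for 24922 probe sets. Per the labels, labelled single-stranded DNA went onto the arrays, and per the submitters' processing notes MAS5 was used, with no version or role. The normalization between arrays was not given in the sources used here, and in 50.0% of probe sets at least 2 arrays held exactly equal values. Symbols came from the platform annotation: 21425 probe sets had 1 symbol, 1399 several and 2098 none, and 21347 matched GRCm38.p6 by gene identifier. Values were used as log2(intensity + 1), and probe sets in the dimmest 30% by mean were left out. A model with 1 mean per group was fitted to 17445 probe sets with limma 3.58.1 in R 4.3.3 (lmFit, eBayes with trend, 5 residual and 3.56 prior degrees of freedom), two-sided, and was tested on simulated data. Of listed genes with several probe sets, the one with the highest mean was taken. The number of arrays limits the precision, and the genotype could not be checked from Rag1, which read 28.4 to 31.4 on all arrays.

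The receptors and gene lists were chosen with earlier results of these data known. Named genes were all receptors, list genes past the threshold or otherwise the 2 with the smallest p, and the 5 genes most correlated with Ccr10. Ccr6, Ccl28, Cpa3 and the single T and NK cell markers were added after their values were seen. Titles share replicate numbers between groups. Same-numbered arrays had deviations from their group means correlated between -0.507 and 0.237. Within a genotype, same-numbered GFP+ and GFP- arrays had 0.082 in Rag1-sufficient and 0.031 and -0.244 in Rag1-/- mice. In groups of 2 arrays the deviations mirror each other, so this check can hardly tell pairs from other arrays. The numbers were not taken as pairs. Alternatives were a pseudocount of 16, no filter, quantile normalization, the replicate number as a block, and leaving out each array in turn.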

Additional observations from a re-analysis of the deposited data

Results flagged for a closer look

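Cxcr4 had Rag1 differences of opposite sign in the fractions. Among GFP+ cells both Rag1-/- arrays (1166 and 1563) lay below both Rag1-sufficient arrays (1880 and 1612), and among GFP- cells all 3 Rag1-/- arrays (1401, 1519 and 1590) lay above both Rag1-sufficient arrays (1254 and 1203). The difference between these differences was -0.66 ± 0.23, with an unadjusted p of 0.0203 and an adjusted p of 0.297 in limma, so it missed the threshold over all probe sets. It lay between -0.87 and -0.44 when each array was left out in turn. After quantile normalization the fraction difference of Rag1-sufficient mice was 0.36 in place of 0.50, and that of Rag1-/- mice changed sign. For this dependence on Rag1, 13.6% of all probe sets had an unadjusted p under 0.05. Of all probe sets, 18.5% were lower in Rag1-/- GFP+ cells without overlap, and 23.0% were higher in Rag1-/- GFP- cells without overlap.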

How the results depend on the processing

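With 2 or 3 arrays per group, counts of calls over all probe sets moved widely. The replicate block takes the replicate numbers as pairs, which the check of these numbers could hardly decide. Under it, 73 probe sets in place of 140 were called between the fractions of Rag1-sufficient mice. The Rag1 difference had 2 in place of 43 in GFP+ and 6 in place of 25 in GFP- cells. There were 6 in place of 37 for the mean fraction difference and 9 in place of 15 for the mean Rag1 difference. Quantile normalization gave 19 (8 higher, 11 lower) in place of 43 (9 higher, 34 lower) for the Rag1 difference in GFP+ cells, 33 (16 higher, 17 lower) in place of 15 (10 higher, 5 lower) for the mean Rag1 difference, and 1 in place of 0 for the dependence on Rag1. It called 1 receptor, Ccr4, for the mean Rag1 difference in place of 0. The pseudocount of 16 gave 43 in place of 25 in GFP- cells, and no filter 5 in place of 15 for the mean Rag1 difference. The cause was not tested.

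Leaving out each array in turn gave 0 to 7 calls for GFP+ against GFP- in Rag1-/- and 3 to 335 in Rag1-sufficient mice, 1 to 135 for the Rag1 difference in GFP+ and 1 to 139 in GFP- cells, 0 to 136 for the mean fraction difference, 2 to 64 for the mean Rag1 difference and 0 to 500 for the dependence on Rag1. The receptors called were 0 to 1 between the fractions of Rag1-sufficient mice and in the means, 0 to 2 for the Rag1 difference in GFP+ cells, and 0 otherwise. A group left with 1 array was assumed to vary like the others.

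Some receptor differences changed sign, and none of these had passed the threshold. Quantile normalization gave, for GFP+ minus GFP- in Rag1-/- mice, 0.07 for Cxcr6, 0.01 for Cxcr4 and 0.02 for Cx3cr1, and in Rag1-sufficient mice -0.02 for Ccr8 and -0.07 for Cx3cr1. For Rag1-/- minus Rag1-sufficient it gave 0.01 for Ccr8 in GFP+ and -0.02 for Cxcr6 in GFP- cells, and for the dependence on Rag1 0.31 for Ccr8, 0.23 for Cxcr6 and 0.09 for Cx3cr1. The replicate block gave -0.07 for Ccr4 and 0.02 for Cxcr6 in Rag1-/- mice, 0.01 for Cxcr6 and 0.00 for Cx3cr1 in the mean fraction difference, and 0.02 for Cxcr6 in the dependence on Rag1, and called no receptor. The other 208 receptor values under these 4 alternatives kept their direction and their side of the threshold, apart from Ccr4 above. Leaving out each array also turned some signs. For Rag1-/- minus Rag1-sufficient in GFP+ cells the ranges were -0.59 to 0.03 for Ccr10, -0.32 to 0.05 for Ccr8, -0.08 to 0.34 for Cx3cr1, -0.04 to 0.29 for Cxcr6. For GFP+ minus GFP- in Rag1-/- mice the ranges were -0.21 to 0.40 for Ccr10, -0.26 to 0.33 for Ccr4, -0.04 to 0.34 for Ccr8, -0.31 to 0.12 for Cx3cr1, -0.14 to 0.83 for Cxcr3, -0.36 to 0.06 for Cxcr4, -0.24 to 0.09 for Cxcr6. For GFP+ minus GFP- in Rag1-sufficient mice the ranges were -0.06 to 0.12 for Cx3cr1, -0.04 to 0.04 for Cxcr6. For the dependence on Rag1 the ranges were -0.41 to 0.21 for Ccr10, -0.17 to 0.35 for Ccr2, -0.20 to 0.18 for Ccr8, -0.34 to 0.09 for Cx3cr1, -0.23 to 0.10 for Cxcr6. For the mean Rag1 difference the ranges were -0.14 to 0.07 for Cxcr4. For the mean fraction difference the ranges were -0.01 to 0.30 for Ccr10, -0.14 to 0.07 for Cx3cr1, -0.12 to 0.05 for Cxcr6.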
